A study of Mus musculus with 8 samples.

Results

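The genes described here are 42 interferon-stimulated genes and regulators of interferon signalling, measured in sorted cells of 2 mouse tumour lines. They are listed by name, as receptors, transcription factors, RNA sensors, antiviral effectors and negative regulators of the pathway. Of the 42 genes, 40 had a probe set that carried their symbol alone, among 18193 genes on the array for which this held. Where a gene had several probe sets, the one brightest on average over the 8 arrays was used. In all, 38 members lay above a log2 signal of 5 on at least 2 of the 8 arrays and were tested together with all other such genes, 12177 in total. Isg15 was read only by a probe set that carries several symbols, and Ifi44 was not analysed here. Oas3, an oligoadenylate synthetase, reached 4.02 to 4.37, and Mx1, an antiviral GTPase, 3.63 to 4.12, both under the filter on all 8 arrays. Of the 38 genes tested, 27 were above the filter on all 8 arrays and 11 on 2 to 7 of them.

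The arrays compare cells with high and low activity of the promoter of PSF1, a DNA replication factor encoded by Gins1. The 4 groups were LLC EGFP-high, LLC EGFP-low, colon26 EGFP-high and colon26 EGFP-low. LLC is a mouse Lewis lung carcinoma line and colon26 a mouse colon carcinoma line, and both carried an EGFP gene driven by the mouse PSF1 promoter. The cells were injected under the skin of mice, and the dissociated tumours (4 weeks old for LLC, 2 weeks for colon26) were sorted for EGFP by flow cytometry. Each group had 2 arrays, numbered 1 and 2 and labelled as biological replicates. The labels do not say whether these were separate tumours, whether a line is 1 clone, or which strain the host mice were, so p-values measure only the spread between these samples, which may be technical.

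Several facts of the whole set of arrays bear on the values below. Gins1 was higher in EGFP-high than in EGFP-low cells by 1.28 on the log2 scale in LLC (SE 0.21, limma adjusted p = 0.0033) and by 1.07 in colon26 (SE 0.21, limma adjusted p = 0.017). The arrays numbered 1 stood apart from those numbered 2 in all 4 groups. The median log2 signal of 3′ minus 5′ probe sets of control transcripts was 2.55 ± 0.13 on the arrays numbered 1 and 0.18 ± 0.15 on those numbered 2 (SD, n = 4 each). EGFP-high and EGFP-low arrays of one line and number departed from their group means together (correlation across genes, which are not independent, 0.89 in LLC and 0.84 in colon26), and they were treated as pairs. The sort was by EGFP alone as far as the labels say, and markers of other cell types moved with it. Of 16 macrophage markers tested 11 were lower in LLC EGFP-high cells (median −1.10) and 14 in colon26 EGFP-high cells (median −2.84). Of 11 fibroblast markers 9 were lower in LLC (median −2.08) and 5 in colon26 (median −0.66). Over all genes tested 6.04% were lower in LLC and 1.58% in colon26. These are mixed samples, in which fewer cells of a type and less RNA per cell cannot be told apart. Their part in the results on the interferon genes was not tested.

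Type I interferons bind a receptor made of Ifnar1 and Ifnar2 and activate a complex of Stat proteins and Irf9, which binds interferon-stimulated response elements (ISRE) in the promoters of its target genes. Interferon gamma signals through Ifngr1 and its partner chain to gamma-activated sites (GAS), and the Irf factors bind sequences like the ISRE. Many of the induced proteins detect, cut or sequester viral RNA, while Usp18 and Socs1 dampen signalling. In tumours, interferon signals act both on the tumour cells and on the host cells among them.

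Promoter windows from 250 bases before to 50 bases after the transcription start were available for 36 of the 42 genes, from RefSeq on the mouse build GRCm38.p6. Those of Oas2, Usp18, Dhx58, Mx1, Mx2 and Rtp4 were not used here. The letters GAAA, any bases NN and GAAA again, the core of an ISRE, were searched on both strands, and TTCNNNGAA, the core of a GAS, which reads alike on both. An ISRE match was found in 17 of the 36 genes (47.2%), against 3.99% of 27025 genes with a window. A GAS match was found in 13 of the 36 (36.1%), against 9.55% of all genes. Both kinds of match occurred in 5 members, and in Bst2 and Ifitm3 they overlapped. A match is a run of letters, and binding was not measured.

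The windows of 4 genes that fell in LLC EGFP-high cells are shown because each holds an ISRE match, which stands in capitals. They are written 5′ to 3′ on the strand of the gene, with the last 50 bases from the transcription start onward. That of Ifit1 is chr19:34640639-34640938 (plus strand), and its 2 matches begin 104 and 85 bases before the start. That of Rsad2 is chr12:26456403-26456702 (minus strand), with its match 120 bases before the start. That of Irf2 is chr8:46739495-46739794 (plus strand), with its match 241 bases before the start. That of Ifitm2 is chr7:140955912-140956211 (minus strand), with its match 46 bases before the start.
Ifit1: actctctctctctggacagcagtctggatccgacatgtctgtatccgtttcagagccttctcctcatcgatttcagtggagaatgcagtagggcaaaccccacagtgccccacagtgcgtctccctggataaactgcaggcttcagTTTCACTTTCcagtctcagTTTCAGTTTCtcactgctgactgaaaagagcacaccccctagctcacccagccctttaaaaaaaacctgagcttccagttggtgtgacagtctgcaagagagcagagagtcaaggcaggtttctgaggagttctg
Rsad2: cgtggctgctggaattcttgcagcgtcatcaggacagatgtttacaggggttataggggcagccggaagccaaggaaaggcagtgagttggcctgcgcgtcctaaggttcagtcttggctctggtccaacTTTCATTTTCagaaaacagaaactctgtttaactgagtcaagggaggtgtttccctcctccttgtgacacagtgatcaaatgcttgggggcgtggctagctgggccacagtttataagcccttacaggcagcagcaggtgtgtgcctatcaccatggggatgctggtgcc
Irf2: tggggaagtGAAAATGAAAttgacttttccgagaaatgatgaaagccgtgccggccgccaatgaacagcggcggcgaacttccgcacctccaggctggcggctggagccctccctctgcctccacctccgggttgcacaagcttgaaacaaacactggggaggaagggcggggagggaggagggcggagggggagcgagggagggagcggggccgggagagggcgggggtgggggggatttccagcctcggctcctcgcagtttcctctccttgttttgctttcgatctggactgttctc
Ifitm2: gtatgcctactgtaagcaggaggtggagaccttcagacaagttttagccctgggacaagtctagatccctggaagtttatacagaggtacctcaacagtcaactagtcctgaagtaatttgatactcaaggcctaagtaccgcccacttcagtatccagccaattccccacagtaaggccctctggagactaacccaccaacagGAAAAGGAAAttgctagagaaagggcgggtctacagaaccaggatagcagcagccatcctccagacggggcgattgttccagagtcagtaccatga
Of the 10 members that fell in LLC, 8 had a window and 6 an ISRE match, those above and Gbp3 and Ifih1. Of the 28 that did not pass the test, 25 had a window and 9 a match.

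In LLC, 10 of the 38 interferon genes were lower in EGFP-high than in EGFP-low cells and 0 were higher, by limma with each pair as a block. They were the receptor chain Ifnar2, the transcription factor Irf2, the negative regulator Usp18, the RNA sensor Ifih1, and the effectors Oasl2, Oas2, Ifit1, Gbp3, Rsad2 and Ifitm2. Their changes ran from −1.29 to −0.72 on the log2 scale. Of all 12177 genes, 6.04% were lower and 4.98% higher, so the share of the members that fell, 26.3%, was above the background. The median change of the members was −0.45 (−0.27 in pair 1 and −0.48 in pair 2), against 0.04 over all genes tested, and 34 of the 38 changes were negative. Among the 27 members above the filter on all 8 arrays 7 fell, with a median of −0.47. At an unadjusted p under 0.05 the limma fit had 18 of 38 members, in either direction, and 25.2% of all genes. Without the pair block limma called 0 of 12177 genes lower, and 1 member had an unadjusted p under 0.05. Left without LLC pair 2, the block fit called 1 member lower, Oasl2, and without LLC pair 1 it called 5.

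Among the receptors, Ifnar2, the chain of the type I receptor that docks Stat2, had log2 signals of 7.91 and 7.92 in EGFP-high cells, against 8.67 and 8.59 in EGFP-low cells of LLC. The groups did not overlap, which held in the lower direction for 10 of the 38 members (26.3%) and 14.6% of all genes. It fell by 0.72 (SE 0.20, limma adjusted p = 0.049), a value that lost its call when the 3 probe sets of the gene were averaged (−0.40). The partner chain Ifnar1 changed by −0.21 and the interferon gamma receptor chain Ifngr1 by −0.18, and neither passed the test.

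Of the 8 transcription factors 1 fell. Irf2, which competes with Irf1 for ISRE sequences, had 8.25 and 6.74 in EGFP-high cells, against 9.07 and 7.57 in EGFP-low cells. Each EGFP-high array lay below its partner, although the number of the array moved the signal more than the sort did and the groups overlapped. Irf2 fell by 0.83 (SE 0.20, limma adjusted p = 0.027), with −0.82 and −0.83 in the pairs. Stat2, the transactivating subunit of the type I complex, had 4.83 and 5.85 in EGFP-high cells, against 5.82 and 6.16 in EGFP-low cells, a change of −0.65 that did not pass (SE 0.21, limma adjusted p = 0.082). The other factors did not pass either. The activator Irf1 changed by −0.47, the interferon-inducible Irf7 by −0.42, the Stat2 partner Irf9 by −0.30 and Irf3, which is activated by virus sensing, by −0.21. Irf5, a factor downstream of Toll-like receptors, changed by 0.21 and the myeloid factor Irf8 by 0.18.

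Usp18, which removes Isg15 from proteins and blocks the type I receptor, was the negative regulator that fell. It had 6.93 and 6.30 in EGFP-high cells, against 7.86 and 7.14 in EGFP-low cells, and the groups did not overlap. The change was −0.89 (SE 0.18, limma adjusted p = 0.011). Socs1, an inhibitor of the Jak kinases, changed by 0.15 and lay under 5 on the arrays numbered 1.

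Of the RNA sensors, Ifih1 (MDA5), a helicase that binds long double-stranded RNA, fell. It had 7.0 and 5.59 in EGFP-high cells, against 7.63 and 6.73 in EGFP-low cells, so each array lay below its partner while the groups overlapped. The change was −0.89 (SE 0.24, limma adjusted p = 0.037). Ddx58 (RIG-I), which senses RNA with a 5′ triphosphate, changed by −0.34, Dhx58 (LGP2), a helper of both sensors, by −0.31, and Trim25, a ubiquitin ligase linked to RIG-I, by −0.48, and these 3 did not pass.

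Of the 7 RNA-binding enzymes tested 2 fell, both of the oligoadenylate synthetase family, whose enzymes make the 2-5A that activates RNase L. Oasl2, a synthetase-like protein, had 6.66 and 5.24 in EGFP-high cells, against 8.02 and 6.46 in EGFP-low cells. Its fall of 1.29 was the largest of the members in LLC (SE 0.22, limma adjusted p = 0.0042), with −1.35 and −1.22 in the pairs. It was also the call that held in each of the 4 fits that leave out a pair. Oas2 had 6.12 and 5.54 in EGFP-high cells, against 6.88 and 6.28 in EGFP-low cells, without overlap. It fell by 0.75 (SE 0.18, limma adjusted p = 0.022). The rest of the class did not pass: Isg20, an exonuclease, changed by −0.50, the kinase Eif2ak2 (PKR) by −0.29, Oas1a by −0.15, the RNA editor Adar by −0.07 and Oasl1 by −0.04.

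Of the Ifit proteins, Ifit1 binds viral RNA that lacks host cap marks. Ifit1 had 7.78 and 4.97 in EGFP-high cells, against 8.47 and 6.23 in EGFP-low cells. Both pairs ran the same way across a wide gap between the numbers. The fall was 0.98 (SE 0.22, limma adjusted p = 0.016), with −0.70 in pair 1 and −1.27 in pair 2. Ifit2 (−0.22) and Ifit3 (−0.21) did not pass.

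Among the GTPases, Gbp3, a guanylate-binding protein, had 8.0 and 6.19 in EGFP-high cells, against 8.80 and 7.45 in EGFP-low cells. It fell by 1.03 (SE 0.29, limma adjusted p = 0.047). Its relative Gbp2 had a change of −0.72 with a wider error (SE 0.36, limma adjusted p = 0.25), and Mx2, a GTPase near the filter on all arrays, changed by 0.08.

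Of 6 membrane-associated effectors 2 fell. Rsad2 (viperin), a radical SAM enzyme on the endoplasmic reticulum, had 9.77 and 6.95 in EGFP-high cells, against 10.40 and 8.64 in EGFP-low cells. Its fall of 1.16 (SE 0.28, limma adjusted p = 0.026) was −0.63 in pair 1 and −1.70 in pair 2, so the size differed between the pairs although the direction did not. Its other 2 probe sets changed by −1.05 and −1.21. Ifitm2, a membrane protein that blocks viral entry, had 10.27 and 11.57 in EGFP-high cells, against 10.90 and 12.40 in EGFP-low cells, and fell by 0.74 (SE 0.19, limma adjusted p = 0.034). Ifitm3 (−0.62), Bst2 (tetherin, which holds virions at the cell surface, −0.58), Rtp4 (−0.67) and Ifitm1 (−0.08) did not pass. Neither did Ifi35 (−0.55), which partners Nmi, or Xaf1 (−0.43), a proapoptotic protein.

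**Figure D1:**
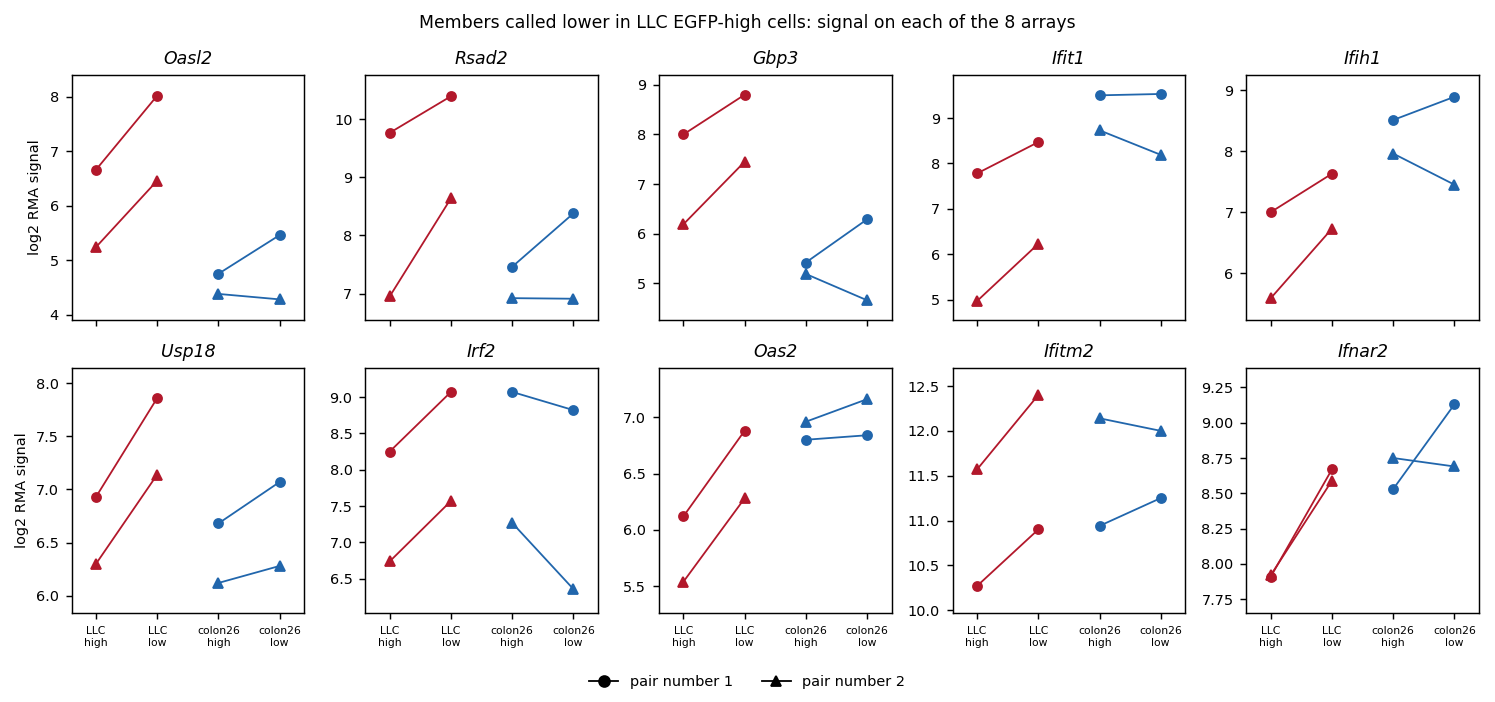
Log2 RMA signal (vertical axis, a separate scale for each gene) of the 10 members that fell in LLC EGFP-high cells, on each of the 8 arrays. Lines join the EGFP-high and EGFP-low array of one line and number (circles number 1, triangles number 2). All 10 genes are lower in EGFP-high cells in both LLC pairs (red), while the colon26 pairs (blue) run both ways.

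In colon26, few members changed with the sort. Of the 38 genes 1 was lower (1.58% of all genes were), 0 were higher (2.18% of all genes were), and 37 did not pass. At an unadjusted p under 0.05 there were 4 members, in either direction, against 16.5% of all genes. The median change was −0.07 (−0.22 in pair 1 and 0.17 in pair 2), against 0.08 over all genes. There were 22 negative and 16 positive changes, a negative share of 57.9%, against 38.4% of all genes. After median centring of the arrays the median of the members was 0.01 and that of all genes 0.17, so its sign rests on the scaling, and 1 member was then called higher.

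The member that fell in colon26 was Irf8, a factor of macrophages and dendritic cells. It had 4.03 and 4.08 in EGFP-high cells, against 4.97 and 4.87 in EGFP-low cells, without overlap, as held in this direction for 4 of the 38 members and 9.02% of all genes. The change was −0.87 (SE 0.18, limma adjusted p = 0.022). All 4 colon26 values lay under the filter of 5, which Irf8 passed through its LLC arrays, and its second probe set changed by −0.18. The call ended without colon26 pair 1 or pair 2, after quantile normalization and without the pair block. The macrophage markers fell in the same arrays, with a summed signal of 1895 and 2490 in EGFP-high cells and 12073 and 7725 in EGFP-low cells. Whether these bear on Irf8 was not tested.

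The next largest changes in colon26 did not pass. Ifit2 had 9.44 and 8.82 in EGFP-high cells, against 8.95 and 7.94 in EGFP-low cells (0.68, SE 0.20, limma adjusted p = 0.11). Irf2 had 9.07 and 7.27, against 8.82 and 6.36 (0.58, SE 0.20, limma adjusted p = 0.18), and thus lay above its partner in both pairs. Rsad2 had 7.46 and 6.92 in EGFP-high cells, against 8.38 and 6.91 in EGFP-low cells (−0.46), and Irf5 6.72 and 5.61, against 6.25 and 5.18 (0.45).

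Of the other genes that fell in LLC, 2 were also lower in both colon26 pairs, without passing the test. Usp18 had 6.68 and 6.12 in EGFP-high cells, against 7.07 and 6.28 in EGFP-low cells (−0.28), and Oas2 had 6.80 and 6.96, against 6.84 and 7.16 (−0.12). The remaining 6 ran both ways in the pairs. Ifit1 had 9.5 and 8.73 in EGFP-high cells, against 9.53 and 8.19 in EGFP-low cells (0.25). Ifih1 had 8.51 and 7.96, against 8.89 and 7.45 (0.07). Between the pairs of these 2 genes the sign turned, as it did for the 4 that follow. Oasl2 had 4.75 and 4.38 in EGFP-high cells, against 5.46 and 4.28 in EGFP-low cells (−0.30), close to the filter. Gbp3 had 5.42 and 5.19, against 6.29 and 4.66 (−0.17). Ifitm2 had 10.94 and 12.14, against 11.25 and 12 (−0.09), and Ifnar2 8.53 and 8.75, against 9.13 and 8.69 (−0.27), each with EGFP-high cells first.

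**Figure D2:**
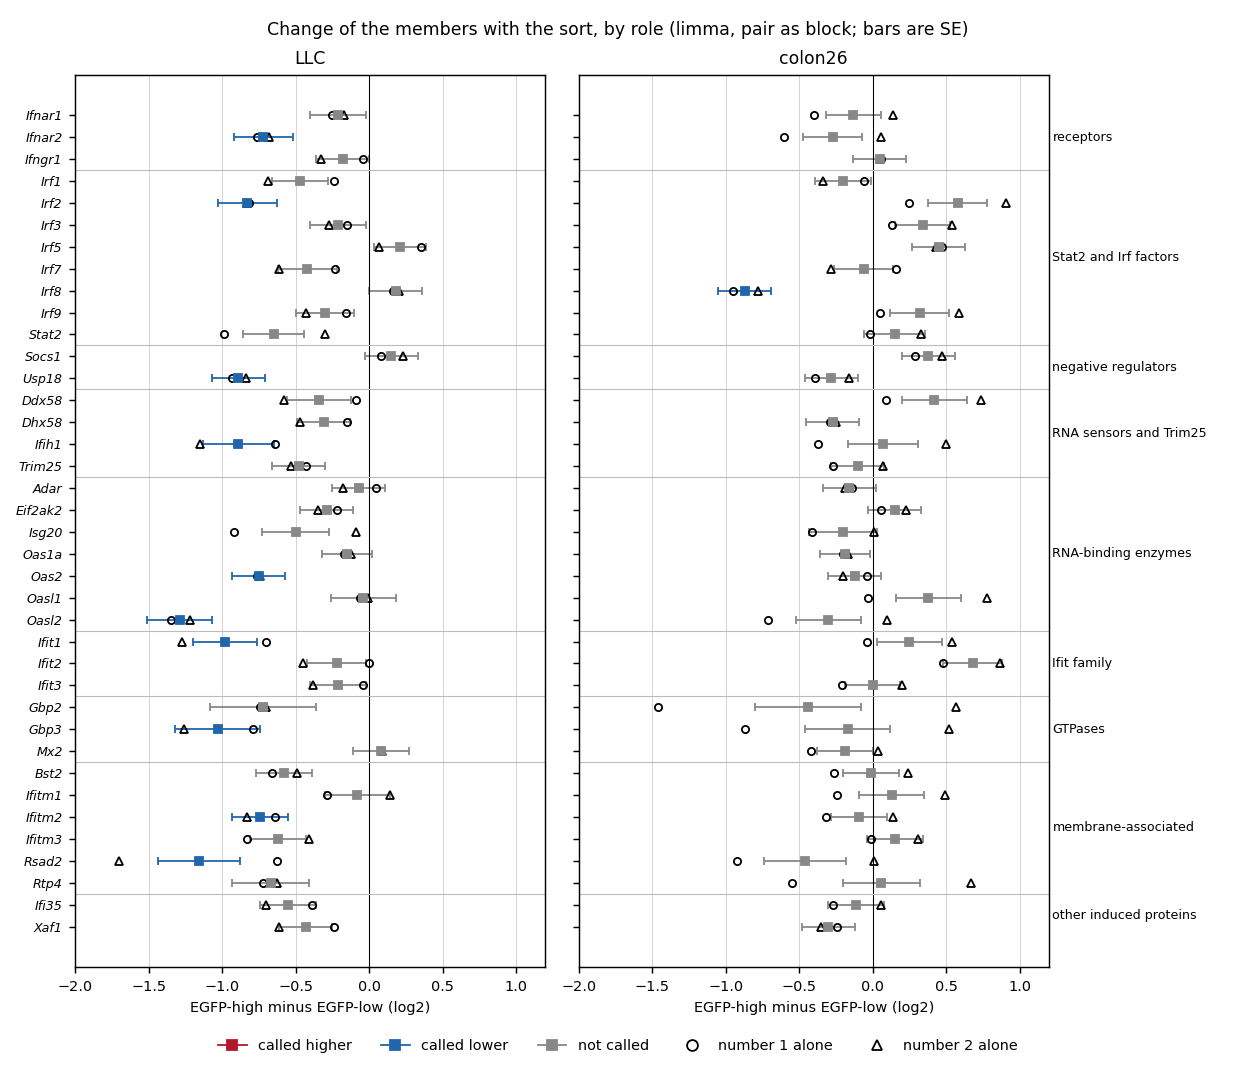
Change of the 38 members tested, as the log2 difference of EGFP-high minus EGFP-low (horizontal axis), in LLC (left) and colon26 (right), grouped by role. Squares are limma estimates with bars of 1 SE, blue where called lower, and open circles and triangles are the pairs numbered 1 and 2. In LLC 34 of 38 squares lie left of 0, and in colon26 22 do.

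As a mean of both lines 5 members were lower (5.57% of all genes were) and 0 higher (7.47% were) in EGFP-high cells, with 17 members at an unadjusted p under 0.05 in limma (27.4% of all genes). They were Rsad2 (−0.81, SE 0.20, limma adjusted p = 0.024), Oasl2 (−0.79, SE 0.15, limma adjusted p = 0.0073), Usp18 (−0.58, SE 0.13, limma adjusted p = 0.014), Ifnar2 (−0.49, SE 0.14, limma adjusted p = 0.048) and Oas2 (−0.44, SE 0.12, limma adjusted p = 0.045). Usp18 and Oas2 were lower in 4 of 4 pairs, and the other 3 in LLC pairs and in 1 colon26 pair each. The members Irf1, Dhx58, Oas1a and Xaf1, which were not called, were also lower in 4 of 4 pairs. Of all genes 9.24% were. The median over the members was −0.27, against 0.04 over all genes. Without the pair block 0 members were called, and leaving out a pair gave 1 to 3 calls, fewest without LLC pair 2 or colon26 pair 1.

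The test of the difference between the lines passed for 1 member, Irf2 (0.985% of all genes passed in this direction and 1.41% in either). Its change was lower in LLC (−0.83) than in colon26 (0.58) by 1.40 (SE 0.29, limma adjusted p = 0.046). The call ended in each of the 4 fits that leave out a pair, without the signal filter, after quantile normalization and without the block. Ifit1 (−1.24, SE 0.31, limma adjusted p = 0.095) and Irf8 (1.04, SE 0.25, limma adjusted p = 0.087) came next and did not pass. Oasl2 (−0.98) and Ifih1 (−0.96) had limma adjusted p-values of 0.19 and 0.24. The median over the members was −0.44, against −0.04 over all genes. The falls in LLC are therefore, apart from that of Irf2, not shown to differ from the changes in colon26 gene by gene.

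The arrays numbered 1 and 2 differed in many members by more than the sort did. For the members the median absolute difference was 0.56 from number to number within a group and 0.33 from sort to sort within a pair, against 0.44 and 0.24 over all genes. In 27 of the 38 members number 2 minus number 1 had the same sign in all 4 groups, as in 61.1% of all genes. By limma 10 were higher and 13 lower on number 2 (26% and 24.4% of all genes). Bst2 was higher on number 2 by 2.34 (SE 0.13, limma adjusted p = 1e-05) and Socs1 by 1.58 (SE 0.13, limma adjusted p = 4.8e-05). Irf2 was lower on number 2 by 1.81 (SE 0.18, limma adjusted p = 0.00012), Ifit1 by 1.79 (SE 0.30, limma adjusted p = 0.0016) and Rsad2 by 1.64 (SE 0.31, limma adjusted p = 0.0028). These genes went opposite ways, and the control transcripts of the same arrays differed in 3′ minus 5′ signal as given above. Whether RNA quality sets these differences was not tested.

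More members were called between the lines than between the sorts, as were more of all genes, and these comparisons used different blocks. Relative to colon26, LLC had higher Gbp2, Gbp3, Oasl2, Oas1a, Irf8, Xaf1 and Bst2 and lower Ifitm1, Ifit1, Ifit2, Ifit3, Ifih1 and Oasl1, in EGFP-high and in EGFP-low cells alike. Among EGFP-high cells 8 members were higher in LLC (21.1%, against 15.7% of all genes) and 12 lower (31.6%, against 23.5%), with a median of −0.01. Among EGFP-low cells 17 were higher (44.7%, against 21% of all genes) and 6 lower (15.8%, against 25.2%), with a median of 0.40. The median over all genes was −0.09 and −0.07. Among the 27 members above the filter on all 8 arrays, 3 were higher and 10 lower in LLC EGFP-high cells, with a median of −0.45. Among EGFP-low cells 11 of these 27 were higher and 4 lower, with a median of 0.03. The median of 0.40 thus rests on members with signals under the filter. After median centring the members' medians were 0.10 and 0.59 and those of all genes 0.03 and 0.12. Of the members higher in LLC, the 8 of the EGFP-high cells were all among the 17 of the EGFP-low cells, 47.1% of these. Of those lower, the 6 of the EGFP-low cells were all among the 12 of the EGFP-high cells, 50% of these, and 0 members were called in opposite directions. The share of overlap over all genes is not given here, and both comparisons come from one fit. The overlap is therefore not read as a trait of the members. The 8 include Irf8 and Dhx58, which passed the filter through LLC arrays alone, and Gbp2 and Oasl2, which had 1 colon26 array above it. None of these genes would have been tested without the LLC arrays, where they are high, so their calls are no support for a difference of the set. The array number was the block in these limma fits, and without it 5 and 4 members were called. Without LLC pair 2, 13 members were called among EGFP-low cells. LLC and colon26 tumours also differed in weeks of growth, in the strains the lines came from and in host cells, and these cannot be told apart from the line.

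The largest difference was that of Gbp2, an interferon-induced GTPase. It had 9.51 and 8.39 in LLC EGFP-high cells, against 4.77 and 4.24 in colon26 EGFP-high cells, and 10.26 and 9.09 in LLC EGFP-low cells, against 6.23 and 3.66 in colon26 EGFP-low cells. LLC was higher by 4.45 among EGFP-high cells (SE 0.40, limma adjusted p = 7.4e-05) and by 4.73 among EGFP-low cells (SE 0.40, limma adjusted p = 5.8e-05). Most colon26 values lay under the filter of 5, which Gbp2 passed through its LLC arrays. The sizes are therefore not exact, and the second probe set gave 3.48 and 3.85. Its relative Gbp3 was also higher in LLC, by 1.79 (SE 0.34, limma adjusted p = 0.0043) and 2.64 (SE 0.34, limma adjusted p = 0.00056) in EGFP-high and EGFP-low cells, from the values given above.

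Within the oligoadenylate synthetase family the lines differed in both directions. Oas1a had 8.40 and 8.75 in LLC EGFP-high cells, against 6.60 and 6.70 in colon26 EGFP-high cells, and 8.57 and 8.87 in LLC EGFP-low cells, against 6.80 and 6.87 in colon26 EGFP-low cells. LLC was higher by 1.93 (SE 0.17, limma adjusted p = 6.5e-05) and 1.89 (SE 0.17, limma adjusted p = 7.9e-05). Oasl2 was higher in LLC by 1.38 (SE 0.28, limma adjusted p = 0.0055) and 2.37 (SE 0.28, limma adjusted p = 0.00033). Of its colon26 signals only 5.46 lay above the filter of 5, which it passed through its LLC arrays, so these sizes are not exact. Oasl1, which restrains Irf7 translation in mice, ran the other way. It had 5.86 and 6.38 in LLC EGFP-high cells, against 6.77 and 8.22 in colon26 EGFP-high cells, and 5.92 and 6.38 in LLC EGFP-low cells, against 6.81 and 7.43 in colon26 EGFP-low cells. LLC was lower by 1.38 (SE 0.25, limma adjusted p = 0.0035) in EGFP-high cells and by 0.97 (SE 0.25, limma adjusted p = 0.015) in EGFP-low cells. Oas2 was lower in LLC EGFP-high cells (−1.05, SE 0.26, limma adjusted p = 0.014) and did not pass among EGFP-low cells (−0.42).

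The 3 Ifit genes, which lie together on chromosome 19, were all lower in LLC in both sorts. Ifit1 was lower by 2.74 (SE 0.42, limma adjusted p = 0.0014) among EGFP-high cells and by 1.51 (SE 0.42, limma adjusted p = 0.020) among EGFP-low cells. Ifit2 had 7.57 and 6.01 in LLC EGFP-high cells, against 9.44 and 8.82 in colon26 EGFP-high cells, and 7.57 and 6.47 in LLC EGFP-low cells, against 8.95 and 7.94 in colon26 EGFP-low cells. It was lower by 2.33 (SE 0.23, limma adjusted p = 0.00012) and by 1.43 (SE 0.23, limma adjusted p = 0.0017). Ifit3 had 5.48 and 4.84 in LLC EGFP-high cells, against 6.18 and 6.73 in colon26 EGFP-high cells, and 5.53 and 5.23 in LLC EGFP-low cells, against 6.39 and 6.53 in colon26 EGFP-low cells. It was lower by 1.29 (SE 0.27, limma adjusted p = 0.0069) and by 1.08 (SE 0.27, limma adjusted p = 0.013). The sensor Ifih1 was likewise lower in LLC, by 1.94 (SE 0.24, limma adjusted p = 0.00047) and 0.98 (SE 0.24, limma adjusted p = 0.012).

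The Ifitm genes lie together on chromosome 7 and differed unequally. Ifitm1 had 5.33 and 5.49 in LLC EGFP-high cells, against 9.14 and 9.36 in colon26 EGFP-high cells, and 5.63 and 5.35 in LLC EGFP-low cells, against 9.39 and 8.87 in colon26 EGFP-low cells. It was lower in LLC by 3.84 (SE 0.22, limma adjusted p = 5.3e-06) and 3.64 (SE 0.22, limma adjusted p = 7.6e-06), and neither sort nor number moved it by as much as 1 on the log2 scale. Ifitm3 was lower in LLC EGFP-high cells (−1.18, SE 0.20, limma adjusted p = 0.0024) and Ifitm2 as well (−0.62, SE 0.21, limma adjusted p = 0.046), and among EGFP-low cells neither passed (−0.42 and 0.03). Whether the probe sets of these close relatives read each other was not checked.

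Other members were higher in LLC. Irf8 had 5.69 and 6.02 in LLC EGFP-high cells, against 4.03 and 4.08 in colon26 EGFP-high cells, and 5.54 and 5.82 in LLC EGFP-low cells, against 4.97 and 4.87 in colon26 EGFP-low cells. LLC was higher by 1.80 (SE 0.18, limma adjusted p = 0.00014) and 0.76 (SE 0.18, limma adjusted p = 0.010). It passed the filter through the LLC arrays alone, so these sizes are taken against signals under 5, and its second probe set gave 1.28 and 0.98. Of 16 macrophage markers, 14 were lower in LLC among EGFP-low cells and 0 higher (25.2% and 21% of all genes). Among EGFP-high cells 1 was lower and 2 higher (23.5% and 15.7% of all genes). Whether these markers bear on Irf8 was not tested. Xaf1 had 8.14 and 7.75 in LLC EGFP-high cells, against 6.69 and 6.55 in colon26 EGFP-high cells, and 8.38 and 8.36 in LLC EGFP-low cells, against 6.93 and 6.91 in colon26 EGFP-low cells. LLC was higher by 1.32 (SE 0.18, limma adjusted p = 0.00067) and 1.45 (SE 0.18, limma adjusted p = 0.00039), calls that ended when its 2 probe sets were averaged (0.32 and 0.43). Bst2 had 7.45 and 9.80 in LLC EGFP-high cells, against 6.31 and 8.99 in colon26 EGFP-high cells, and 8.12 and 10.29 in LLC EGFP-low cells, against 6.58 and 8.75 in colon26 EGFP-low cells. LLC was higher by 0.97 (SE 0.19, limma adjusted p = 0.0046) and 1.54 (SE 0.19, limma adjusted p = 0.00042), clear only within a number. Dhx58 was called higher in LLC by 0.67 and 0.71, with 3 values above 5, all in LLC. Its other probe sets ran the other way (−0.62 and −0.55 for one, −1.23 and −1.25 for the other), so these data give no direction for Dhx58.

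A further 9 members were higher in LLC among EGFP-low cells and did not pass among EGFP-high cells. They included Rsad2 (1.87, SE 0.43, limma adjusted p = 0.0091), from 10.40 and 8.64 in LLC and 8.38 and 6.91 in colon26. Ddx58 had 8.30 and 8.10 in LLC EGFP-low cells, against 7.48 and 6.64 in colon26 EGFP-low cells (1.14, SE 0.22, limma adjusted p = 0.0036). Stat2 had 5.82 and 6.16, against 5.11 and 4.71 (1.08, SE 0.31, limma adjusted p = 0.021). The other 6 were Eif2ak2 (0.96), Irf9 (0.90), Usp18 (0.82), Irf2 (0.73), Ifi35 (0.66) and Irf5 (0.62). Averaging the probe sets ended the calls of Stat2, Ifi35 (0.32) and Irf5 (0.03). The other probe set of Stat2 gave 0.44, and the call of Stat2 also ended without LLC pair 2 or colon26 pair 2. The other probe set of Irf5 gave −0.55, and its call ended in each of the 4 fits that leave out a pair. Among EGFP-high cells the members lower in LLC, beyond those described, were Irf3 (−0.98), Trim25 (−0.78) and Ifnar2 (−0.72). All 3 calls ended when the probe sets of the gene were averaged (−0.46, −0.43 and −0.07), and 1 other probe set ran the other way for Trim25 (0.44) and for Ifnar2 (0.55). Ifnar1, Ifngr1, Irf1, Irf7, Socs1, Adar, Isg20, Mx2 and Rtp4 did not pass between the lines in either sort.

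**Figure D3:**
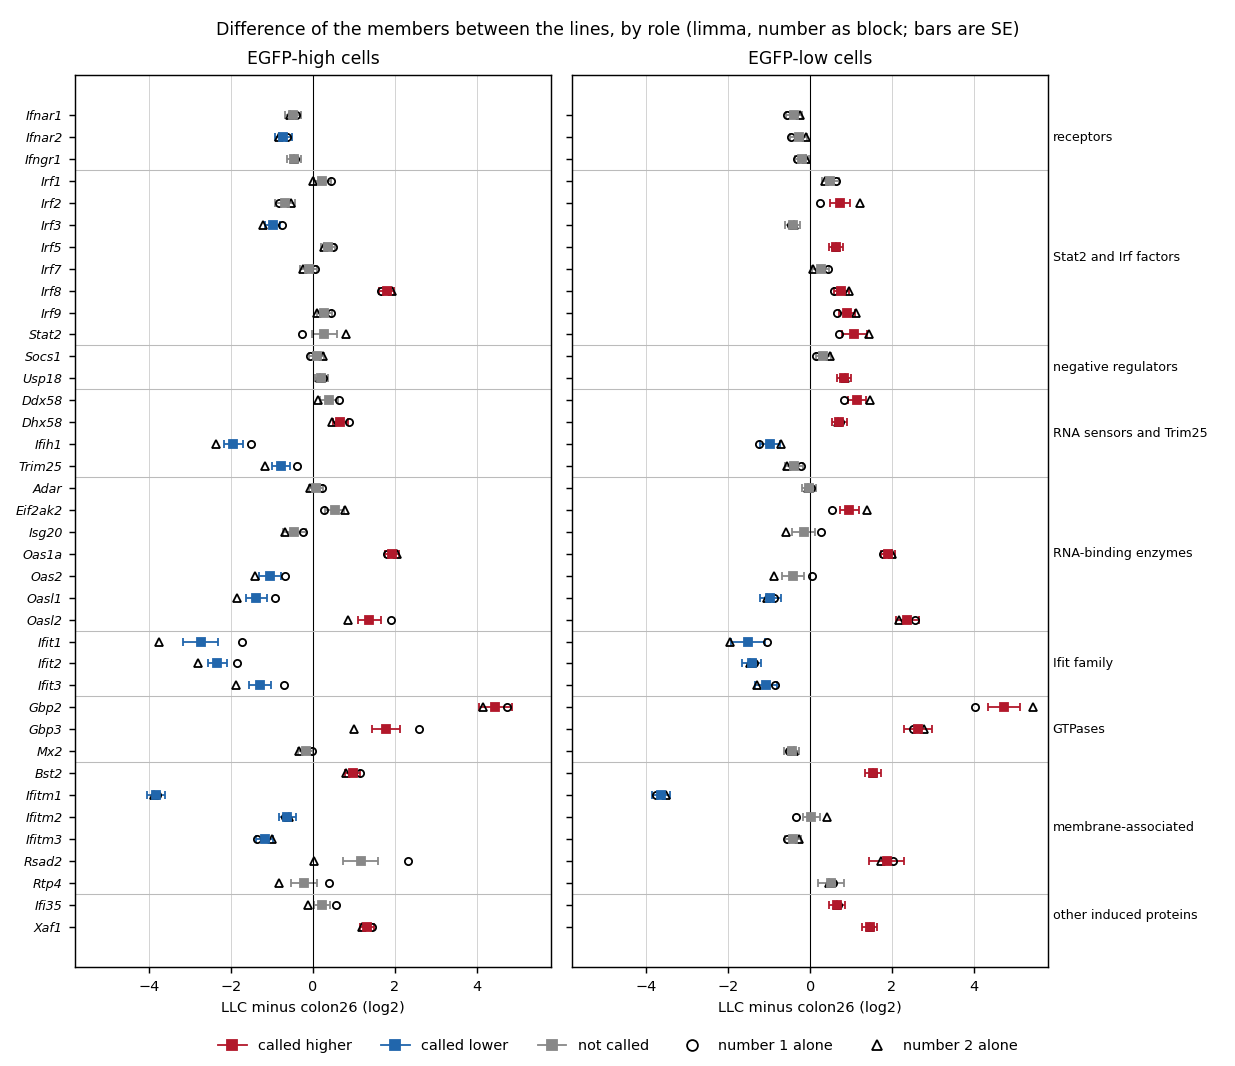
Difference of the 38 members tested between the lines, LLC minus colon26 on the log2 scale (horizontal axis), in EGFP-high cells (left) and EGFP-low cells (right), grouped by role. Squares are limma estimates with bars of 1 SE, red where called higher and blue where called lower in LLC, and open circles and triangles are the arrays numbered 1 and 2. Gbp2 lies farthest right (4.45 and 4.73) and Ifitm1 farthest left (−3.84 and −3.64).

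Other genes of the pathway, a list of 119 of which 83 were tested, were also lower in LLC more often than all genes. There 22 of 83 were lower in EGFP-high cells and 1 higher (6.04% and 4.98% of all genes), with a median of −0.37 (all genes 0.04). The 22 include Ddx60, which passed the filter only through the EGFP-low arrays of LLC and supports nothing here. They also include Cxcl9, which would not have passed it without those arrays. In colon26 2 were lower and 0 higher (1.58% and 2.18%), with a median of −0.07 (all genes 0.08). Among the interferon genes themselves 6 had a probe set, and only Ifna1 passed the filter (4.33 to 5.96). It did not pass the test of the sort in either line.

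In LLC the other pathway genes with the smallest p-values were effectors and sensors. Ddx60, a helicase that aids RIG-I, had 4.27 and 3.57 in EGFP-high cells, against 5.89 and 5.4 in EGFP-low cells. It passed the filter through the EGFP-low arrays alone, so its call and its change of −1.72, taken against signals under 5, support nothing here. Cxcl9, a T cell attractant induced by interferon gamma, had 5.07 and 4.75, against 6.89 and 5.90 (−1.48, SE 0.21, limma adjusted p = 0.0016). Outside the EGFP-low arrays of LLC only its 5.07 lay above the filter, so without them Cxcl9 would not have been tested. Nothing is read from its call either, and its size is not exact. Tlr4, the receptor for lipopolysaccharide, had 6.87 and 6.05, against 7.91 and 7.67 (−1.33, SE 0.20, limma adjusted p = 0.0024). Ifi27l2a, an interferon-induced protein, had 5.83 and 6.32, against 6.90 and 7.59 (−1.17, SE 0.18, limma adjusted p = 0.0026). In these 4 genes the groups did not overlap. Stat3, a signal transducer of cytokine receptors, was lower as well (−0.70, limma adjusted p = 0.031), while the kinases Jak1 (−0.46), Jak2 (−0.37) and Tyk2 (−0.15) did not pass. Cgas, the sensor of cytosolic DNA, went up, with 7.41 and 5.95 in EGFP-high cells, against 6.31 and 5.08 in EGFP-low cells (0.98, SE 0.24, limma adjusted p = 0.028).

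In colon26, Ifi27l2a had 5.46 and 5.59 in EGFP-high cells, against 6.36 and 6.30 in EGFP-low cells (−0.80, SE 0.18, limma adjusted p = 0.035). Iigp1, an immunity-related GTPase, had 4.91 and 4.05, against 6.92 and 4.58 (−1.27, SE 0.29, limma adjusted p = 0.042). Of these signals of Iigp1 only 6.92 lay above the filter of 5 and the groups overlapped, so the size is not exact. Of the pathway genes Ddx60 alone was called in the difference between the lines, and 6 of its 8 signals lay under the filter, so nothing is read from it. As a mean of both lines 17 of 83 were lower (5.57% of all genes were) and 1, Cgas (0.90), higher (7.47% of all genes were). Ifi27l2a (−0.98), Ddx60 (−0.94), Cxcl9 (−1.0) and Iigp1 (−1.31) had the smallest p-values. Nothing is read from Ddx60 or Cxcl9, which are counted among the 17. In colon26 all signals of Cxcl9 and most of Iigp1 lay under the filter, so these sizes are not exact.

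Between the lines, 19 of the 83 were higher and 24 lower in LLC among EGFP-high cells, and 38 and 18 among EGFP-low cells. Of all genes 15.7% were higher and 23.5% lower among EGFP-high cells, and 21% and 25.2% among EGFP-low cells, so the counts of lower genes lay near or under the background. Higher in LLC in both sorts were Aim2, a DNA sensor (2.19 and 2.17), Iigp1 (3.57 and 3.66), Gbp7 (3.37 and 3.03) and Cmpk2, a mitochondrial nucleotide kinase next to Rsad2 (2.81 and 3.27). Lower in both were Ifi202b, a DNA-binding protein of the p200 family (−8.11 and −8.31), Trim14 (−2.46 and −2.85) and Ifi204 (−3.06 and −1.75). Tlr4 (−2.39) was among the smallest p-values of EGFP-high cells, and Tapbp (1.64) and Cgas (−1.90) of EGFP-low cells. Ifi202b had 3.77 and 3.62 in LLC EGFP-high cells, against 12.06 and 11.56 in colon26 EGFP-high cells, and 3.81 and 3.32 in LLC EGFP-low cells, against 12.22 and 11.53 in colon26 EGFP-low cells, so the LLC values lay under the filter. Trim14 likewise passed the filter through the colon26 arrays alone, and Aim2 and Cmpk2 through the LLC arrays alone. The differences of these 4 genes are taken against signals under 5 and are not exact sizes. Those of Iigp1 are not exact either, since most of its colon26 signals lay under 5. Nor are those of Ifi204, which had 5.14 and 3.71 in LLC EGFP-high cells and 6.16 and 5.03 in LLC EGFP-low cells, mostly near or under 5.

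Markers of host cells moved beside these results. The summed linear signal of the macrophage markers was 1083 and 1159 in LLC EGFP-high cells, against 3083 and 2774 in LLC EGFP-low cells. Ctss, a lysosomal protease of these cells, changed by −2.57 in LLC and −4.46 in colon26, while Cd14 changed by 0.44 and −0.04 and did not pass. The summed fibroblast signal was 10832 and 10279 in LLC EGFP-high cells, against 32209 and 48149 in LLC EGFP-low cells, and 33496 and 34914 in colon26 EGFP-high cells, against 49388 and 39936 in colon26 EGFP-low cells. Dcn, a matrix proteoglycan, changed by −3.39 in LLC and −0.36 in colon26, and the collagen gene Col3a1 by −1.28 and −0.30. The fibroblast median was lower in LLC than in colon26, and the macrophage median lower in colon26 than in LLC. Whether either list bears on the members was not tested. Itgam, a defining macrophage marker, lay under the filter on all 8 arrays.

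The other lists held fewer genes, and 6.04% of all genes fell in LLC and 1.58% in colon26. Of 9 endothelial markers 0 fell in LLC (limma; median −0.35; Eng 0.02, Plvap −0.54) and 4 in colon26 (median −1.09; Eng −0.46, Plvap −2.13). The summed endothelial signal was 386 and 721 in LLC EGFP-high cells, against 411 and 899 in LLC EGFP-low cells, and 370 and 389 in colon26 EGFP-high cells, against 693 and 963 in colon26 EGFP-low cells. Of 6 general blood cell markers 3 fell in each line (medians −1.07 and −1.66), with Laptm5 at 0.06 and −0.28 and Cd53 at −1.0 and −2.92. Of 3 neutrophil markers 2 fell in each line, S100a8 (−1.73 and −2.06) and S100a9 (−1.13 and −0.88). Of the markers of plasmacytoid dendritic cells, the main makers of type I interferon, Tcf4 fell in LLC (−0.90), a gene that many other cells express, while Siglech lay at 4.63 to 5.29 and changed by −0.03. Of the dendritic (3), T and NK (4) and B cell (2) markers tested 0 were called in either line by limma. The highest of these were Flt3 (0.15 and 0.03), Zbtb46 (0.00 and −0.04), Cd4 (0.10 and −0.26), Cd8a (0.43 and −0.59), Pax5 (0.00 and −0.28) and Cd79a (0.16 and 0.04), in LLC and in colon26. A further 3, 6 and 3 markers of these lists lay under the filter on all 8 arrays.

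**Figure D4:**
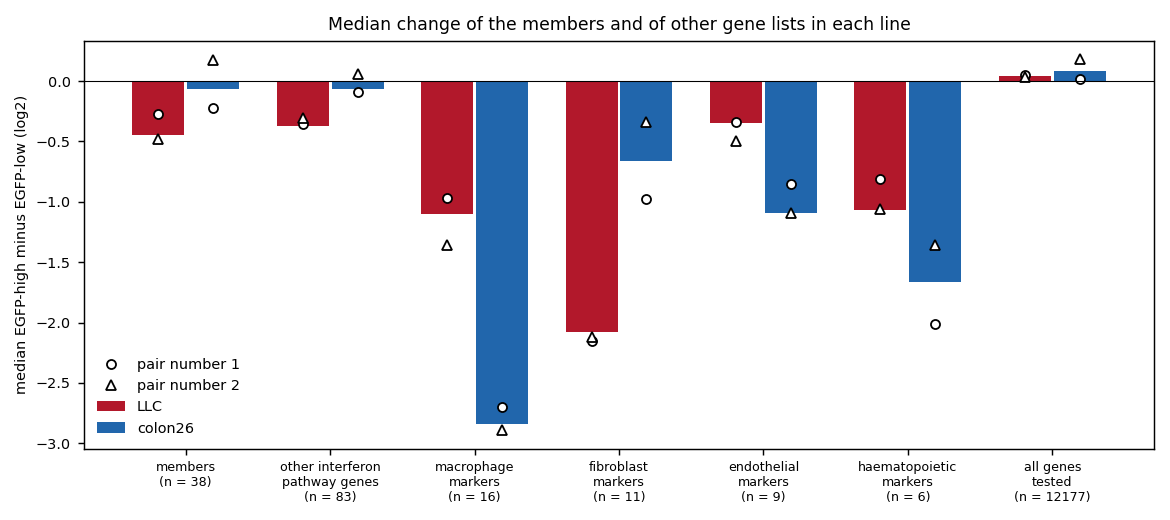
Median change of the 38 members, of 83 other pathway genes, of 4 marker lists and of all 12177 genes tested, as the log2 difference of EGFP-high minus EGFP-low (vertical axis), in LLC (red bars) and colon26 (blue bars). Circles and triangles are the medians in the pairs numbered 1 and 2. The members' bar reaches −0.45 in LLC and −0.07 in colon26, and the macrophage bar −1.10 and −2.84.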

How the data were processed

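RNA of 8 sorted samples was hybridised to Affymetrix mouse arrays as complementary RNA (cRNA), with 6 ug of cRNA per the labels' protocols. The authors deposited log2 signals, made by RMA per the submitters' processing notes. The RMA software was not given in the sources used here. Some labels of the colon26 samples name LLC in one field, and the title and cell line fields were followed.

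Of 45101 probe sets, 34945 carried 1 symbol and 932 several, which were left out. The probe set with the highest mean stood for a gene, and 12177 genes above 5 on at least 2 arrays were tested in limma 3.58.1 (R 4.3.3), with Benjamini-Hochberg adjustment and a threshold of 0.05. High against low used the pair of arrays of one line and number as a block (2 residual degrees of freedom). The lines were compared with the array number as a block (3 residual degrees of freedom). The pairing rests on the shared numbers in the labels and on correlations of 0.89 and 0.84 between the deviations of paired arrays. The number of arrays limits the precision.

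The members and the gene lists were chosen with earlier results of these data known. All members are named. Those called are given with each array's value, up to the 12 largest changes, and other pathway genes by smallest p, up to 4 a direction. The fits were tested on simulated data. Alternatives changed the block, filter, scaling, probe sets, limma settings and arrays left out.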

Additional observations from a re-analysis of the deposited data

Results flagged for a closer look

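The change of Irf2 differed between the lines by −1.4 (limma adjusted p = 0.046), while its colon26 change alone did not pass (0.58, limma adjusted p = 0.18). The call of the difference ended in 9 of 13 alternatives, among them the 4 that leave out a pair. In 7 of the 38 members, Irf2 and 6 more, both LLC pairs moved one way and both colon26 pairs the other (18.4%, against 14.4% of all genes), a share near the background. The differences between the LLC and colon26 changes were −0.55 for Irf3 (−0.15 and −0.27 in LLC, 0.13 and 0.54 in colon26), 1.04 for Irf8 (0.16 and 0.20, −0.95 and −0.78) and −0.61 for Irf9 (−0.16 and −0.43, 0.05 and 0.59). They were −0.75 for Ddx58 (−0.09 and −0.58, 0.09 and 0.74), −0.24 for Ifngr1 (−0.04 and −0.33, 0.06 and 0.05) and −0.43 for Eif2ak2 (−0.22 and −0.35, 0.06 and 0.23). In the limma test of the difference these 6 did not pass, with adjusted p-values of 0.38 for Irf3, 0.087 for Irf8, 0.36 for Irf9, 0.31 for Ddx58, 0.71 for Ifngr1 and 0.47 for Eif2ak2.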

How the results depend on the processing

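No call of a member turned its sign under any alternative run in which the gene was tested, and Dhx58, whose other probe sets run the other way, was not tested with its probe sets averaged. The pair or number block decided most calls. With no replicate block, members called lower were 0 in LLC, 0 in colon26 and 0 in the mean of both lines, the difference between the lines had 0, and the line comparisons had 5 in EGFP-high and 4 in EGFP-low cells. With array weights and no block these counts were 0, 0, 0, 0, 6 and 4. Without the signal filter LLC had 5, the mean of both lines 2 and the difference 0. With a filter of 7 colon26 had 0 and the difference 2, and the medians between the lines were −0.45 and 0.03. Quantile normalization gave 6 in LLC, 0 in colon26, 3 in the mean and 0 for the difference. Median centring gave 1 member higher in colon26, 2 for the difference and a median of 0.59 between the lines in EGFP-low cells. A trended, robust variance gave 3 for the difference. Averaging all probe sets of a gene gave 0 in colon26 and a median of 0.26 in EGFP-low cells. Taking a plain probe set where a gene has one gave 0 for the difference and a median of 0.32. Leaving out 1 pair gave 1 to 8 members lower in LLC (median −0.48 to −0.27), 0 to 1 in colon26 (−0.22 to 0.17), 1 to 3 in the mean (−0.31 to −0.16) and 0 for the difference (−0.66 to −0.25). Between the lines it gave 16 to 20 calls in EGFP-high cells (−0.15 to −0.01) and 13 to 22 in EGFP-low cells (0.36 to 0.42). Gbp2, Ifitm1 and Oas1a kept their calls between the lines in both sorts under every alternative run. Signals near 5 limit what Irf8, Dhx58, Mx2, Oasl2 in colon26 and Gbp2 in colon26 can show.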
